A study of Homo sapiens with 6 samples.

Results

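Cells move bicarbonate, protons and lactate across their membranes to keep their internal pH steady while glycolysis makes acid. Most of the SLC4 family carries bicarbonate, and SLC9 exchangers trade sodium for protons. Several SLC16 transporters move lactate and other monocarboxylates together with a proton. SLC26 proteins exchange anions such as chloride, bicarbonate and sulfate. Carbonic anhydrases interconvert carbon dioxide and bicarbonate. In the colon these genes serve salt and bicarbonate transport and the uptake of short-chain fatty acids, and CA9, CA12 and SLC16A3 are textbook targets of the hypoxia-inducible factors.

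The genes described are 34 named members of these families together with basigin and an exchanger scaffold, out of 26336 named genes. They were taken by symbol, not by any measured value, and all 34 were present and passed the filter of a mean of at least 1 normalized count. They are 8 SLC4 transporters, 6 SLC9 exchangers with the scaffold SLC9A3R1, 6 SLC16 transporters with basigin (BSG), 4 SLC26 exchangers and 8 carbonic anhydrases. RNA came from HCT116 and SW620, lines derived from human colorectal carcinomas, grown in DMEM with 10% serum. Each line had 2 libraries with a short hairpin RNA against TEAD4 (shTEAD4) and 1 control library labelled pLKO, the lentiviral hairpin vector, which makes 6 libraries. TEAD4 is a DNA-binding partner of the Hippo pathway effectors YAP and TAZ, and the series set out to find its target genes in colorectal cancer cells. Nothing in the labels tells if the letters that mark a line's knockdown samples stand for hairpins, cultures or clones, so p-values measure only the spread between these libraries, which may be technical.

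Depth lay between 15778571 and 18859715 reads per library, counted over named genes. TEAD4 itself stood at 68.2 and 68.6 normalized counts in the HCT116 knockdown libraries, against 355 in the control. In SW620 it stood at 268 and 234, against 1140.4 in the control. Normalized counts are reads divided by 1 size factor per library, and each line's table was normalized on its own, which holds for every level set across the lines. The epithelial markers KRT8, KRT18 and EPCAM were abundant in every library. CDX1, an intestinal epithelial factor, was at 0 in all 6 libraries, and VIL1 and LGALS4 stayed under 10 in HCT116. The summed level of the 11 epithelial markers lay between 108571 and 158374, that of 5 endothelial markers between 16.4 and 56.4, that of 6 leukocyte markers between 178 and 1294, and that of 7 fibroblast markers between 463 and 1078. PTPRC and PECAM1, which define leukocytes and endothelium, had at most 3.05 normalized counts in any library. The leukocyte sum, mostly CD68, was 376 and 1145 in the HCT116 knockdown libraries, against 1294 in the control. The part of other cell types in the results was not tested.

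Promoter stretches of 3 members are shown because the results turn on them: SLC4A8 has the largest fitted change, SLC16A3 is the lactate exporter that stood apart in HCT116, and CA9 is abundant in SW620 and nearly absent in HCT116. The sequences are from RefSeq, build GRCh38.p14, and read 5′ to 3′ on the plus strand. The SLC4A8 stretch is chr12:51424581-51424770, that of SLC16A3 is chr17:82228792-82229031 and that of CA9 is chr9:35673898-35673927. Capitals mark ACGTG, the core of the hypoxia response element, on either strand.
SLC4A8: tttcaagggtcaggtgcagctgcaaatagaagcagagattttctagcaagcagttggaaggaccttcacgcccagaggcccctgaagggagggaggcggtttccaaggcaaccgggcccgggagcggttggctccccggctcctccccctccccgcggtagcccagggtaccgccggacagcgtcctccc
SLC16A3: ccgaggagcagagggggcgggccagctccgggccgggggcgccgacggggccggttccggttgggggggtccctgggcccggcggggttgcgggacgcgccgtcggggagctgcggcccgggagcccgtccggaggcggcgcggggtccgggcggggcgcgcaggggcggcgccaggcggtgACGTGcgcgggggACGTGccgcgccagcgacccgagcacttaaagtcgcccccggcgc
CA9: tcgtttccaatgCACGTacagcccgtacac

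Of the members, 24 matched the promoter table, with 41 start sites, and the 250 bases before each start were searched on both strands for 3 motifs. GGAATG, the core that TEAD factors bind, was found before a start of 2 of these members, SLC4A5 and SLC4A7, against 14.3% of all genes in the table. ACGTG was found for 6 members, SLC4A2, SLC9A5, SLC16A3, SLC26A2, CA9 and BSG, against 21.7% of all genes. In SLC16A3 it lay 68 and 55 bases before the second of 5 RefSeq starts and in CA9 18 bases before the RefSeq start. The GENCODE 29 spans of CA9 and SLC16A3 begin earlier, at 35673856 and 82228397, so these matches lie inside those spans. TGANTCA, the AP-1 motif, was found for 4 members, SLC4A4, SLC9A8, SLC9A9 and CA9, against 8.06% of all genes. These shares depend on how many starts a gene has. Counted by start, GGAATG lay before 2 of the 41, against 11.9% of all starts. ACGTG lay before 7 of the 41, against 18.5%, and TGANTCA before 4, against 6.57%. The motifs share no bases with one another, but ACGTG on both strands can overlap as the palindrome CACGTG. SLC4A8 held none of the 3 motifs before either of its RefSeq starts. Both lie inside its GENCODE 29 span, whose own start at 51391317 was not searched. A match is a run of letters in this window and says nothing of binding. SLC4A11, SLC16A1, SLC16A5, SLC16A6, SLC26A11, CA1, CA2, CA8, CA11 and CA13 were not matched.

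RNA levels were set side by side between genes per transcript length. BSG, the chaperone that brings lactate transporters to the plasma membrane, was the highest member in both lines. Its RPKM, reads per kb of transcript scaled to the library's reads on named genes, was 303 and 291 in the HCT116 knockdown libraries, against 369 in the control. In SW620 its RPKM was 346 and 315 in the knockdown libraries, against 293 in the control. Of the 34 members, 23 had a median RPKM of at least 1 in HCT116 and 22 in SW620. After BSG the highest were SLC9A3R1, SLC16A3, SLC16A1, SLC4A2 and SLC4A7 by the mean over all libraries. At the low end CA1, SLC4A10, SLC26A3 and SLC4A4 had an RPKM of at most 0.181 in every library.

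The carbonic anhydrases made up a different set in each line. CA9, the membrane-bound extracellular enzyme, took 92.6% and 89.0% of the summed carbonic anhydrase level per length in the SW620 knockdown libraries, against 84.8% in the control. In HCT116 it took 0.961% and 0.642% in the knockdown libraries, against 0.176% in the control. CA2, a cytosolic enzyme of colon epithelium, held that place in HCT116 with 47.8% and 63.4% in the knockdown libraries, against 69.5% in the control, and took at most 1.06% in SW620. The cytosolic CA13, the sulfate transporter SLC26A11 and the monocarboxylate transporter SLC16A7 likewise had median RPKM values of 3.18, 8.88 and 2.55 in HCT116, and of 0.115, 0.204 and 0.0450 in SW620. These line differences are descriptions of single cell lines and were not tested.

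**Figure D1:**
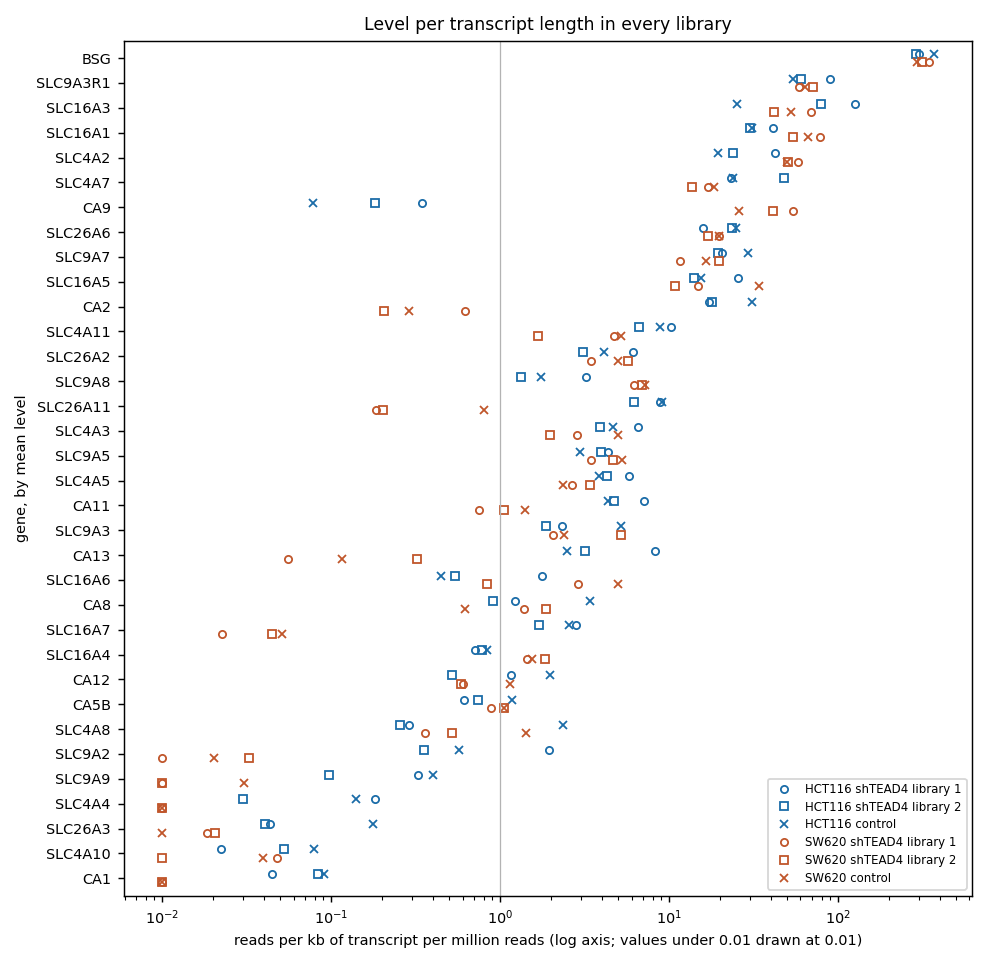
RPKM, reads per kb of transcript scaled to the reads on named genes (log axis), for the 34 members in the 6 libraries, ordered by mean level, with shTEAD4 libraries as circles and squares and controls as crosses. BSG leads in both lines, and CA9, CA2, SLC26A11, CA13 and SLC16A7 lie far apart between HCT116 and SW620.

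In HCT116, shTEAD4 against control, the members furthest from the control were SLC4A8, which was lower, and SLC16A3, which was higher. By limma the unadjusted p was under 0.05 for 4 of the 34, 1 higher (SLC16A3) and 3 lower (SLC4A8, CA8 and SLC26A3). Over all genes tested the share was 5.53%, with 2.87% higher and 2.66% lower. Of the 18743 genes, 0 had a limma or edgeR adjusted p under 0.05, TEAD4 included. At an unadjusted p under 0.05 edgeR found 3 members (4.67% of all genes) and DESeq2 also 3 (4.16%). DESeq2 on the recovered reads called 2 of the 34 members after adjustment, SLC4A8 and SLC16A3. It called 0.156% of the 12202 genes that it gave an adjusted p, and some members had none. By size, 4 of the 27 members with at least 50 normalized counts in their highest library had both knockdown libraries at least 2-fold off the control, 1 higher (SLC16A3) and 3 lower (SLC4A8, CA8 and SLC9A3), where 3.89% of such genes did, 1.45% higher and 2.44% lower. Both knockdown libraries lay on one side of the control for 23 of 34 members, 11 higher and 12 lower, against 61.1% of all genes, 29.7% higher and 31.4% lower.

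In SW620, shTEAD4 against control, SLC4A8 was again lower, as were SLC16A5 and SLC26A11, and CA8 was higher. These 4 of the 34 members, 1 higher and 3 lower, had an unadjusted limma p under 0.05, where 1.45% of all genes had one, 0.523% higher and 0.928% lower. Limma, edgeR and DESeq2 each called 0 members after adjustment, and DESeq2 called 0.0373% of all genes. At an unadjusted p under 0.05 edgeR found 4 members (1.32% of all genes) and DESeq2 found 3 (1.08%). Without SW620 shTEAD4 library 1, 2 members had an unadjusted limma p under 0.05, where 3.2% of all genes had one in that fit. Without library 2 there were also 2 members, against 1.77% of all genes. Without either HCT116 knockdown library there were 6, against 5.01% (library 1) or 4.79% (library 2) of all genes. By size, 3 of 23 members were at least 2-fold off the control in both knockdown libraries, 1 higher (CA8) and 2 lower (SLC4A8 and SLC16A5), where 1.3% of such genes were, 0.316% higher and 0.982% lower. Both knockdown libraries lay on one side of the control for 20 of 34 members, 5 higher and 15 lower, against 60.9% of all genes, 31.1% higher and 29.9% lower. The median log2 fold change of the members was -0.11 in HCT116 and -0.10 in SW620, against -0.0013 and 0 over all genes tested.

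**Figure D2:**
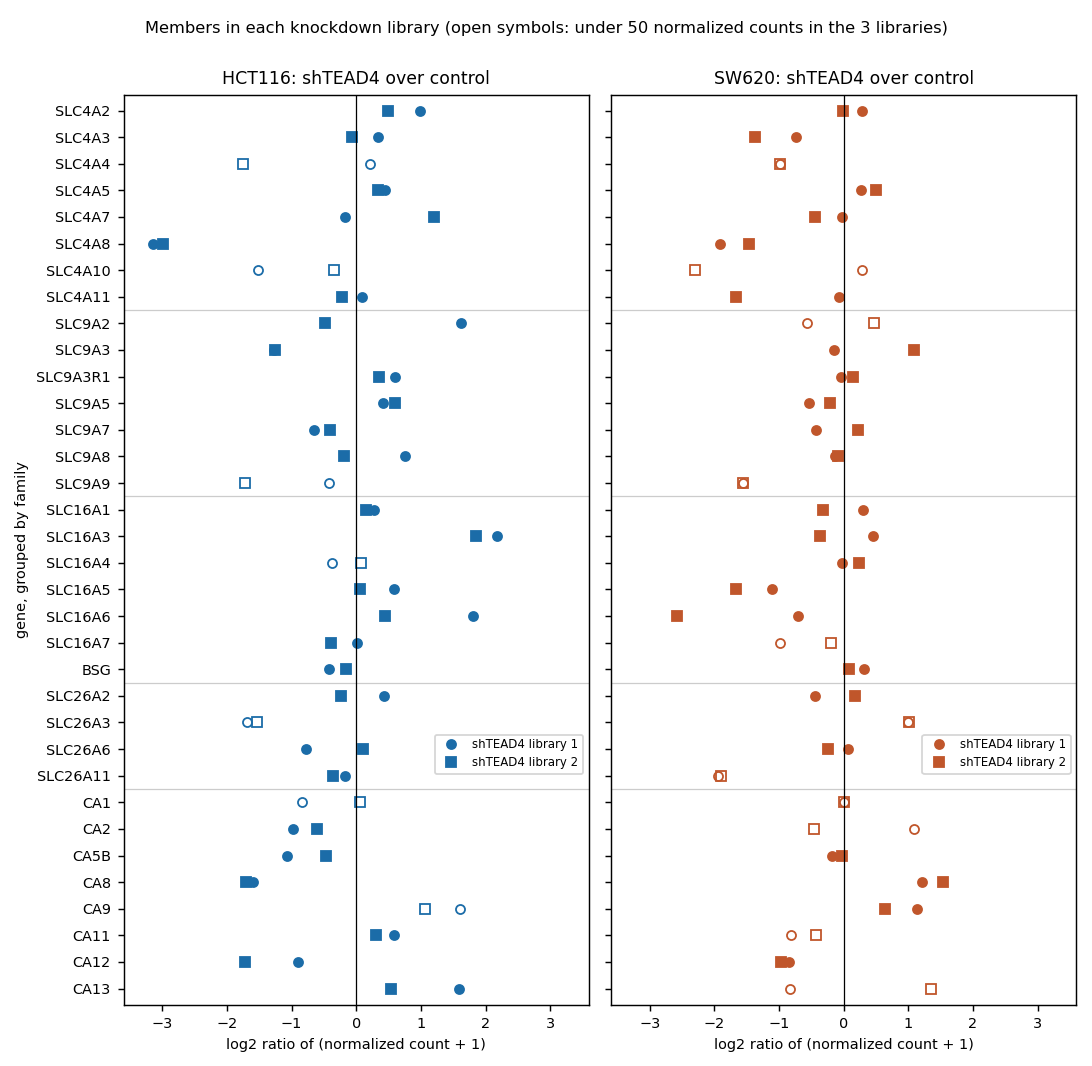
Log2 ratio of (normalized count + 1) of each shTEAD4 library over the control of its line, for the 34 members grouped by family, HCT116 left and SW620 right. Circles and squares are shTEAD4 libraries 1 and 2, open where no library of the line reached 50 normalized counts; SLC4A8 lies left of 0 in all 4 libraries, and CA8 left in HCT116 and right in SW620.

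Among the SLC4 bicarbonate transporters, SLC4A8 (chr12:51391317-51515763, plus strand, GRCh38) was lower in all 4 knockdown libraries. It encodes the sodium-driven chloride/bicarbonate exchanger, which takes up bicarbonate and is best known from neurons. In HCT116 it stood at 50.05 and 55.8 normalized counts in the knockdown libraries, against 448 in the control, from 55, 52 and 441 reads. In SW620 it stood at 79.1 and 107.7 in the knockdown libraries, against 299.7 in the control. The 4 knockdown libraries thus lay below both controls.

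The limma log2 fold change of SLC4A8 was -3.06 ± 0.44 (SE) in HCT116, with an unadjusted p of 0.00091 and an adjusted p of 0.828. In SW620 it was -1.69 ± 0.44, with an unadjusted p of 0.0118 and an adjusted p of 1. SLC4A8 fell by the DESeq2 test in HCT116 (adjusted p = 0.00137) and with both lines in 1 model (adjusted p = 4.07e-05), but not in SW620 (adjusted p = 1). In the authors' deposited table its shrunken log2 fold change was -1.99 in HCT116 (adjusted p = 0.0222) and -0.69 in SW620 (adjusted p = 0.601). The difference between the lines, HCT116 minus SW620, was -1.37 ± 0.62 and had an unadjusted limma p of 0.0772. Left out in turn, each library of the 6 kept SLC4A8 at an unadjusted limma p of at most 0.0147 in the model of both lines, with log2 fold changes between -3.06 (without the SW620 control) and -1.69 (without the HCT116 control). In SW620 alone the p was 0.0616 without knockdown library 1. The kit keeps no strand information, and 392 exonic bases of SLC4A8 overlap GALNT6 on the other strand. GALNT6 stood at 677 and 513 in the HCT116 knockdown libraries, against 550.0 in the control. In SW620 GALNT6 had 1079 and 1136 in the knockdown libraries, against 1027 in the control. In RNA of bulk cultures, fewer cells that express a gene and less RNA per cell cannot be told apart.

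SLC4A8 was a small part of its family. It took 0.326% and 0.295% of the summed SLC4 level per length in the HCT116 knockdown libraries, against 3.73% in the control, and 0.419% and 0.729% in those of SW620, against 1.74% in the control. SLC4A2, the widely expressed chloride/bicarbonate exchanger AE2, led the family per length in all 3 SW620 libraries and in HCT116 knockdown library 1. It stood at 3065 and 2169 normalized counts in the HCT116 knockdown libraries, against 1544 in the control, with an unadjusted limma p of 0.0738. In SW620 it stood at 5304 and 4326, against 4362 in the control. SLC4A7, the electroneutral sodium bicarbonate cotransporter NBCn1, led in the other HCT116 libraries and split the knockdown pair there, with 2624 and 6813 against 2971 in the control. Its SW620 values were 2474 and 1852, against 2524 in the control.

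The other SLC4 members did not reach an unadjusted limma p of 0.05 in any comparison. SLC4A5, a sodium bicarbonate cotransporter, was higher in all 4 knockdown libraries by little. Its log2 fold changes were 0.39 ± 0.31 in HCT116 and 0.38 ± 0.31 in SW620. SLC4A5 shares 1324 exonic bases with MTHFD2 on the other strand and 3809 with AC006030.1 on the same strand. The far more abundant MTHFD2 had log2 fold changes of 0.23 ± 0.36 in HCT116 and 0.26 ± 0.36 in SW620. The part of these genes in the reads of SLC4A5 was not tested. SLC4A3 and SLC4A11 lay below the control in both SW620 knockdown libraries, with log2 fold changes of -1.05 ± 0.43 and -0.87 ± 0.70. SLC4A4, the electrogenic cotransporter NBCe1, and SLC4A10 stayed under 16 normalized counts in every library.

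**Figure D3:**
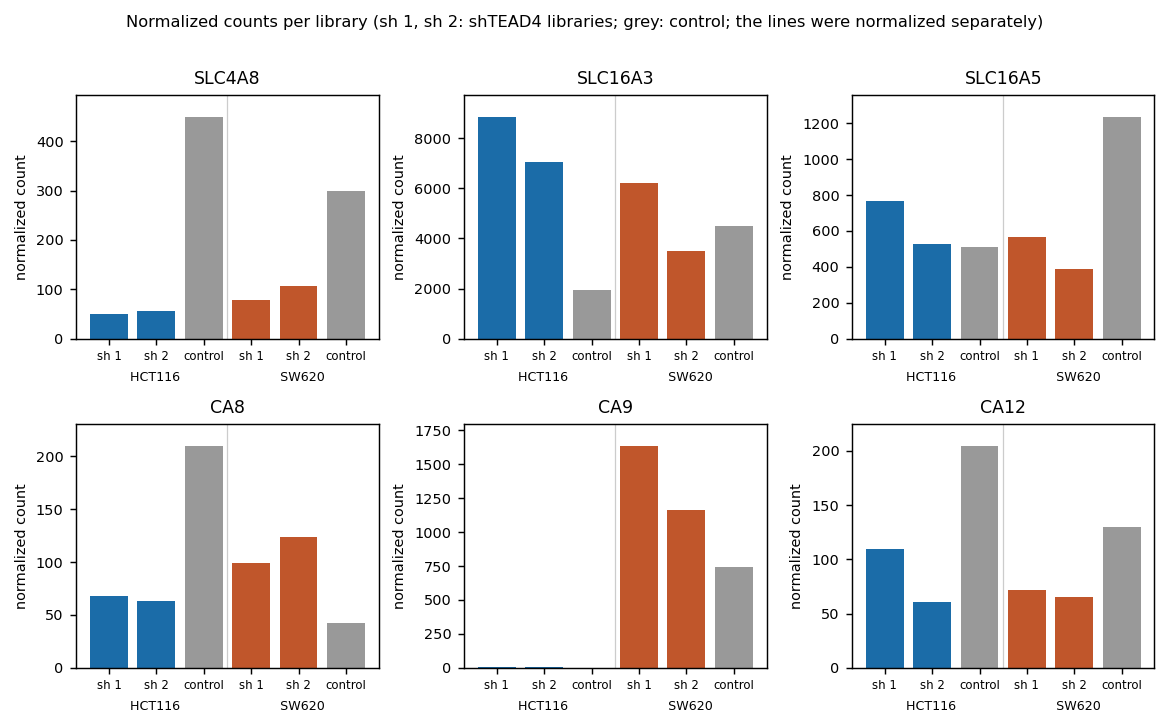
Normalized counts of 6 members in each library, with shTEAD4 libraries 1 and 2 (coloured) left of the control (grey) in each line; each bar is 1 library. SLC4A8 and CA12 are below the control in all 4 shTEAD4 libraries, SLC16A3 is above it in HCT116, and CA9 is near 0 in HCT116.

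The lactate transporter SLC16A3 (chr17:82228397-82261129, plus strand, GRCh38), or MCT4, exports lactate from glycolytic cells. It stood at 8835 and 7035 normalized counts in the HCT116 knockdown libraries, against 1956 in the control. In SW620 it stood at 6211 and 3504, against 4518 in the control. Both HCT116 knockdown libraries were thus above the control, while the SW620 pair lay on both sides of it.

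The limma log2 fold change of SLC16A3 was 2.01 ± 0.42 in HCT116, with an unadjusted p of 0.0050 and an adjusted p of 0.828, and 0.05 ± 0.42 in SW620. SLC16A3 rose by the DESeq2 test in HCT116 (adjusted p = 0.0153). In the authors' deposited table its shrunken log2 fold change there was 1.45 (adjusted p = 0.325). The difference between the lines was 1.96 ± 0.60, with an unadjusted limma p of 0.0216 and an adjusted p of 1. That p was 0.0555 with no filter on low values, 0.162 and 0.123 without HCT116 knockdown library 1 and 2, and 0.0758 without SW620 knockdown library 2. With both lines in 1 model the value was 1.03 ± 0.44, with an unadjusted p of 0.0463, and it was 0.05 without the HCT116 control. That p was 0.128 and 0.102 without HCT116 knockdown library 1 and 2, and 0.0947 without SW620 knockdown library 1. In HCT116 the unadjusted p was 0.101 without knockdown library 1 and 0.0749 without library 2. CSNK1D, which shares 482 exonic bases with SLC16A3 on the other strand, stood at 3601 and 3522 in the HCT116 knockdown libraries, against 2943 in the control.

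Per length, SLC16A3 outweighed SLC16A1, the lactate transporter MCT1, 3.05-fold and 2.65-fold in the HCT116 knockdown libraries, against a ratio of 0.816 in the control. In SW620 the ratio was 0.887 and 0.766 in the knockdown libraries, against 0.795 in the control. SLC16A3 held 63.5% and 62.8% of the summed level of the 6 SLC16 transporters in the HCT116 knockdown libraries, against 33.4% in the control. These ratios are taken within a library and do not depend on its size factor.

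**Figure D4:**
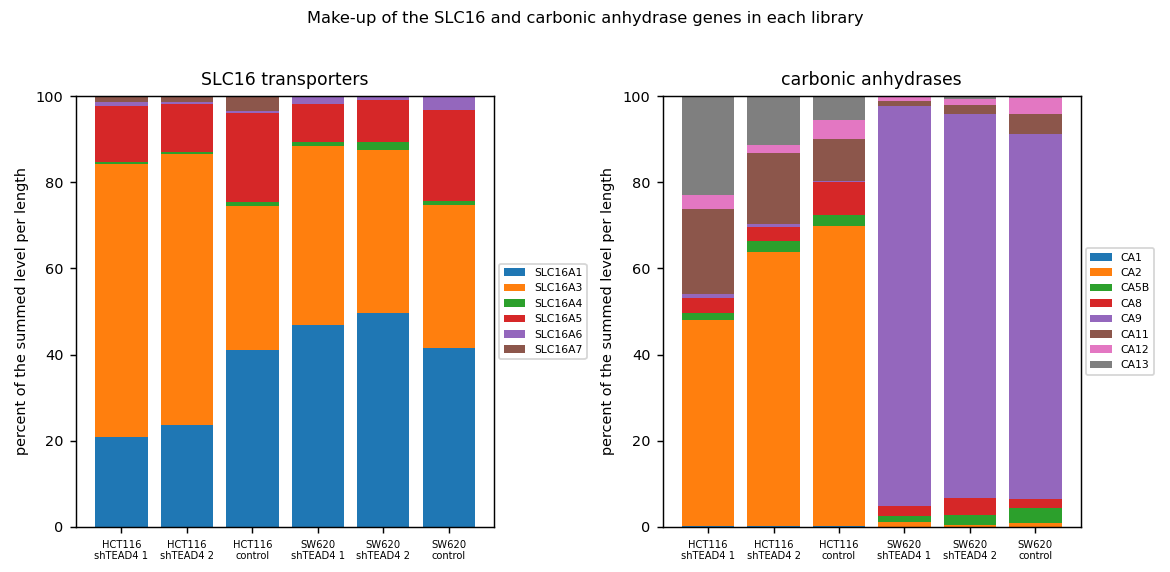
Share of each gene in the summed level per transcript length of the 6 SLC16 transporters (left) and the 8 carbonic anhydrases (right), in percent, for the shTEAD4 and control libraries of HCT116 and then SW620. SLC16A3 holds 63.5% and 62.8% in HCT116 shTEAD4 libraries, against 33.4% in the control, and CA9 holds at least 84.8% of the carbonic anhydrases in SW620.

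SLC16A1 itself stood at 2625 and 2402 normalized counts in the HCT116 knockdown libraries, against 2172 in the control. In SW620 its values were 6344 and 4145 in the knockdown libraries, against 5148 in the control. The log2 fold changes of SLC16A1 were 0.21 ± 0.34 in HCT116 and -0.01 ± 0.34 in SW620. BSG stood at 8738 and 10534 in the HCT116 knockdown libraries, against 11706 in the control. BSG had 12754 and 10838 in the SW620 knockdown libraries, against 10284 in the control. Its log2 fold changes were -0.29 ± 0.30 in HCT116 and 0.19 ± 0.30 in SW620. Embigin (EMB), the other chaperone of these transporters, had 584 and 372 normalized counts in the HCT116 knockdown libraries, against 378 in the control, and at most 1 read in SW620. The lactate dehydrogenase genes LDHA and LDHB had a ratio per length of 0.539 and 0.551 in the HCT116 knockdown libraries, against 0.530 in the control. In SW620 that ratio was 0.750 and 0.630 in the knockdown libraries, against 0.650 in the control.

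SLC16A5, the monocarboxylate transporter family member MCT6, was lower in the SW620 knockdown libraries. It stood there at 569 and 389 normalized counts, against 1233 in the control, a log2 fold change of -1.39 ± 0.40 with an unadjusted limma p of 0.0176 and an adjusted p of 1. In HCT116 it stood at 768 and 529, against 510.3 in the control. The difference between the lines was 1.71 ± 0.56, with an unadjusted limma p of 0.0292, which was 0.0557 with no filter on low values. Without any 1 of the 4 knockdown libraries, the unadjusted p lay between 0.0582 and 0.119 in SW620 and between 0.0710 and 0.126 for the difference. SLC16A6 (MCT7) had 98.3 and 37.5 normalized counts in the HCT116 knockdown libraries, against 27.4 in the control. It had 206 and 55.4 in the SW620 knockdown libraries, against 336 in the control, so the knockdown pair lay far apart in both lines. SLC16A4 and the pyruvate and lactate transporter SLC16A7 (MCT2) had log2 fold changes no larger in size than 0.59.

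Among the SLC9 sodium/proton exchangers, SLC9A3 (NHE3), which absorbs sodium at the apical membrane of intestinal epithelium, was at 88.3 and 89.0 normalized counts in the HCT116 knockdown libraries, against 214.5 in the control. In SW620 it was at 98.8 and 233, against 109 in the control. The HCT116 log2 fold change was -1.27 ± 0.62 with an unadjusted limma p of 0.0952. SLC9A3 shares exonic bases with EXOC3 and PP7080, and EXOC3 stood at 665 and 666 in the HCT116 knockdown libraries, against 688 in the control. PP7080, which shares 2363 exonic bases with it on the same strand, stood at 174 and 90.1, against 81.3 in the control. SLC9A3R1 (NHERF1), the scaffold that anchors SLC9A3 to the cytoskeleton, stood at 2590 and 2172 in the HCT116 knockdown libraries, against 1707 in the control. In SW620 the scaffold was at 2165 and 2446 in the knockdown libraries, against 2216 in the control. Its log2 fold changes were 0.47 ± 0.27 in HCT116 and 0.05 ± 0.27 in SW620.

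The remaining SLC9 exchangers had no unadjusted limma p under 0.05. SLC9A7, an exchanger of the trans-Golgi network, held 62.9% and 71.9% of the summed SLC9 exchanger level per length in the HCT116 knockdown libraries, against 73.1% in the control, and 49.8% and 54.1% in those of SW620, against 52.6% in the control. SLC9A9, an endosomal exchanger, was below the control in all 4 knockdown libraries, at 17.3 and 6.43 normalized counts in HCT116, against 23.4 in the control. In SW620 it rested on 0 and 0 reads against 2 reads, at which no fold can be given. SLC9A2, SLC9A5 and SLC9A8 had log2 fold changes between -0.37 and 0.57 in the 2 lines.

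The SLC26 exchanger with the smallest p was SLC26A11, a sulfate and chloride transporter. It stood at 9.88 and 10.3 normalized counts in the SW620 knockdown libraries, against 41.0 in the control, from 10, 10 and 42 reads. In HCT116 it stood at 374 and 327, against 422 in the control. All 4 knockdown libraries were below their control.

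The limma log2 fold change of SLC26A11 was -1.92 ± 0.46 in SW620 with an unadjusted p of 0.00829, and -0.27 ± 0.46 in HCT116. By reads alone the SW620 ratio was 0.245, with a 95% interval from 0.137 to 0.428 that covers counting error only. With both lines in 1 model the value was -1.10 ± 0.44 with an unadjusted p of 0.0379, and it was -0.27 without the SW620 control and -1.92 without the HCT116 control. That p was 0.0598 without HCT116 knockdown library 2, and 0.0856 and 0.0792 without SW620 knockdown library 1 and 2. SGSH, which overlaps it by 8 exonic bases on the other strand, stood at 60.3 and 49.2 in the SW620 knockdown libraries, against 92.8 in the control. SLC26A6, an apical anion exchanger and the highest SLC26 member per length, was at 601 and 1115 in the HCT116 knockdown libraries, against 1033 in the control. Its SW620 values were 951 and 766 in the knockdown libraries, against 909 in the control. SLC26A2, a sulfate transporter, had log2 fold changes of 0.10 ± 0.44 in HCT116 and -0.14 ± 0.44 in SW620. SLC26A3, the chloride/bicarbonate exchanger lost in congenital chloride diarrhoea, had 2 and 2 reads in the HCT116 knockdown libraries, against 8 in the control. In SW620 it had 1 and 1 reads, against 0 in the control, so its unadjusted limma p of 0.0484 in HCT116 and of 0.0308 for the difference rest on a handful of reads. Its HCT116 ratio by reads was 0.242, with a 95% counting interval from 0.0534 to 0.904, and edgeR and DESeq2 gave unadjusted p-values of 0.134 and 0.566 there.

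Of the carbonic anhydrases, CA8 lay on opposite sides of the control in the lines. CA8 is a carbonic anhydrase related protein without catalytic activity that binds the inositol trisphosphate receptor. It stood at 68.2 and 63.3 normalized counts in the HCT116 knockdown libraries, against 209 in the control. In SW620 it stood at 98.8 and 124, against 42.0 in the control. Both HCT116 knockdown libraries were thus below their control, and both SW620 knockdown libraries above theirs.

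The limma log2 fold change of CA8 was -1.66 ± 0.46 in HCT116 with an unadjusted p of 0.0150 and 1.38 ± 0.46 in SW620 with an unadjusted p of 0.0293. The difference between the lines was -3.04 ± 0.65, with an unadjusted p of 0.00528 and an adjusted p of 1. The difference lay between -3.20 and -2.87 when any 1 of the 4 knockdown libraries was left out. In SW620 alone the unadjusted p was 0.0687 without knockdown library 1 and 0.108 without library 2.

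CA9 and CA12 are membrane enzymes with an extracellular catalytic domain, and CA9 was above the control and CA12 below it in all 4 knockdown libraries. CA9 (chr9:35673856-35681159, plus strand, GRCh38) stood at 1633 and 1162 normalized counts in the SW620 knockdown libraries, against 743 in the control. In HCT116 it had 9 and 5 reads in the knockdown libraries, against 2 in the control. The SW620 ratio by reads was 1.89 (95% counting interval from 1.74 to 2.05), and the HCT116 ratio of 3.39 had an interval from 0.778 to 30.7. By limma the log2 fold change of CA9 was 0.89 ± 0.53 in SW620 (unadjusted p = 0.154) and 1.33 ± 0.53 in HCT116 (unadjusted p = 0.0534).

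CA12 stood at 109 and 61.1 normalized counts in the HCT116 knockdown libraries, against 204 in the control. In SW620 CA12 stood at 72.2 and 65.6 in the knockdown libraries, against 129.9 in the control. By limma its log2 fold change was -1.31 ± 0.53 in HCT116 (unadjusted p = 0.0575) and -0.91 ± 0.53 in SW620 (unadjusted p = 0.150). In both genes the knockdown libraries lay on one side of the single control of their line. All 4 lay above it for 12.1% of all genes, as for CA9, and below it for 11.6%, as for CA12. With both lines in 1 model the limma log2 fold change was 1.11 ± 0.37 for CA9 (unadjusted p = 0.0173) and -1.11 ± 0.36 for CA12 (unadjusted p = 0.0162), each with an adjusted p of 0.935. The unadjusted p of CA9 was 0.0834 without SW620 knockdown library 1, and leaving out a control took it to 0.116 (HCT116) or 0.0694 (SW620). For CA12 leaving out the HCT116 or the SW620 control gave 0.158 or 0.0592. CA9 shares 643 exonic bases with ARHGEF39 on the other strand. ARHGEF39 stood at 278 and 336 in the SW620 knockdown libraries, against 400.3 in the control. In HCT116 it stood at 118 and 91.1 in the knockdown libraries, against 105 in the control, far above CA9 there. The part of ARHGEF39 in the reads of CA9 was not tested.

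The other carbonic anhydrases did not reach an unadjusted limma p of 0.05. CA2 stood at 432 and 561.8 normalized counts in the HCT116 knockdown libraries, against 854 in the control, a log2 fold change of -0.79 ± 0.76. In SW620 CA2 had 19.8 and 6.15 in the knockdown libraries, against 8.79 in the control. CA13 stood at 462 and 222 in the HCT116 knockdown libraries, against 152 in the control, a log2 fold change of 1.07 ± 1.07. In SW620 CA13 had 3.95 and 21.5 in the knockdown libraries, against 7.81 in the control, so the SW620 pair of both genes lay on both sides of the control. The mitochondrial CA5B was below the control in all 4 knockdown libraries, with log2 fold changes of -0.77 ± 0.48 in HCT116 and -0.11 ± 0.48 in SW620. CA11, another inactive related protein, had log2 fold changes of 0.44 ± 0.49 in HCT116 and -0.62 ± 0.49 in SW620. CA1 had at most 4 reads in HCT116 and 0 in SW620.

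With both lines in 1 model, the unadjusted limma p was under 0.05 for 5 of the 34, 2 higher (SLC16A3 and CA9) and 3 lower (SLC4A8, SLC26A11 and CA12), where 4.43% of all genes had one, 1.73% higher and 2.71% lower. Limma and edgeR called 0 members after adjustment, and DESeq2 called 1, SLC4A8. It called 0.0947% of the 15836 genes that it gave an adjusted p, and some members had none. At an unadjusted p under 0.05 edgeR found 4 members and DESeq2 5, each against 4% of all genes. Without HCT116 shTEAD4 library 2, or without SW620 shTEAD4 library 1, 3 members had an unadjusted limma p under 0.05, where 5.1% and 3.41% of all genes had one in those fits. All 4 knockdown libraries were above their control for 2 of 34 members, CA9 and SLC4A5, against 12.1% of all genes. They were below it for 5 members, SLC4A8, SLC9A9, SLC26A11, CA5B and CA12, against 11.6% of all genes. The median log2 fold change of the members was -0.20, against -0.014 over all genes.

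The difference between the lines, HCT116 effect minus SW620 effect, had an unadjusted limma p under 0.05 for 4 of the 34 members, where 2.26% of all genes had one, 1.04% higher and 1.22% lower. These were SLC16A3 and SLC16A5, with the larger value in HCT116, and CA8 and SLC26A3, with the larger value in SW620. After adjustment limma, edgeR and DESeq2 called 0 members, and DESeq2 called 0.00534% of all genes. At an unadjusted p under 0.05 edgeR found 4 members (1.68% of all genes) and DESeq2 also 4 (1.44%). Without HCT116 shTEAD4 library 2 there were 7 members at an unadjusted limma p under 0.05, where the share of all genes in that fit was 14.5%. Without SW620 shTEAD4 library 2 there were 2 members, against 1.96% of all genes. Without HCT116 shTEAD4 library 1 the share of members at that level was about that of all genes in that fit. The knockdown libraries of the lines lay on opposite sides of their controls for 7 of 34 members, against 13.8% of all genes. These were SLC9A5, SLC16A5, SLC16A6, SLC26A3, CA8, CA11 and BSG.

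**Figure D5:**
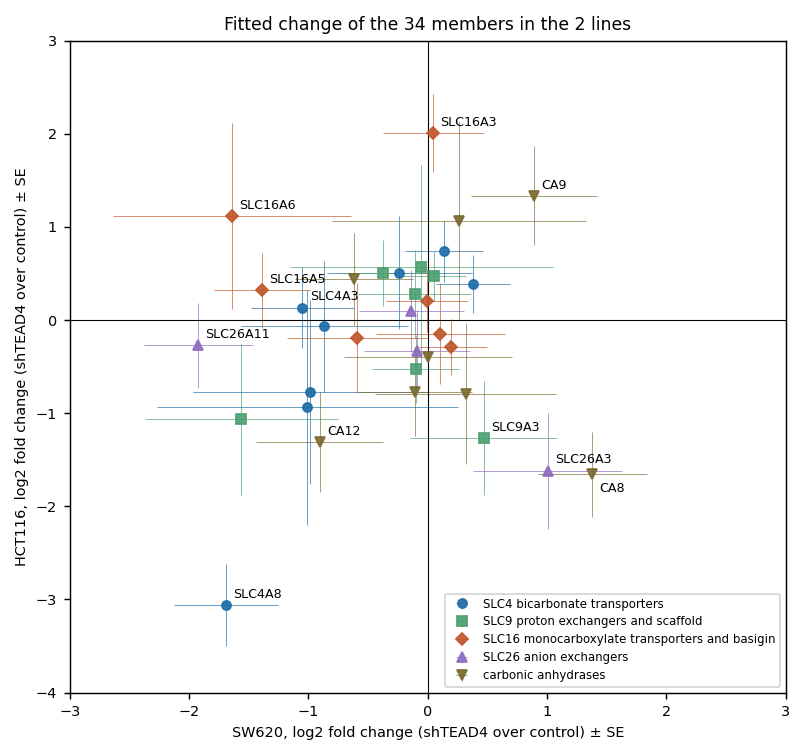
Limma log2 fold change (shTEAD4 over control) of the 34 members in HCT116 (vertical axis) against SW620 (horizontal axis), with bars of 1 standard error. SLC4A8 lies at -3.06 and -1.69, SLC16A3 at 2.01 and 0.05, and CA8 at -1.66 and 1.38.

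Other genes of the pathway were taken from a list of 76 symbols, of which 71 were found and 62 tested. In HCT116, 2 of the 62 (3.23%) had an unadjusted limma p under 0.05, where 5.53% of all genes had one. At that level edgeR found the same 2, and DESeq2 found 3, SLC9A3R2, SLC16A9 and SLC16A13. The scaffold SLC9A3R2 stood at 893 and 536 normalized counts in the knockdown libraries, against 263 in the control, a log2 fold change of 1.39 ± 0.41. ATP6AP1, an accessory subunit of the vacuolar proton pump, stood at 1038 and 1363, against 2069 in the control, a log2 fold change of -0.80 ± 0.29. Of the 38 listed genes with 50 or more normalized counts in their highest HCT116 library, 3 were at least 2-fold above the control in both HCT116 knockdown libraries, SLC9A3R2, SLC16A13 and SLC16A14, where 1.45% of all genes at that level were. None of the 38 was 2-fold below it, and 0 of the 39 that reached that level in SW620 were 2-fold off the control there. Of the 23 proton pump genes tested, 17 had a negative log2 fold change in HCT116, with a median of -0.32, where 50.1% of all genes had one, with a median of -0.0013. In SW620, 8 of the 23 had one, with a median of 0.13, where 49.5% of all genes had one, with a median of 0. In SW620, in both lines together and for the difference, 0 of the 62 genes had an unadjusted limma p under 0.05, where edgeR found 0, 0 and 2 (1.32%, 4% and 1.68% of all genes) and DESeq2 found 0, 1 and 2 (1.08%, 4% and 1.44% of all genes). Limma, edgeR and DESeq2 called 0 of the 62 genes after adjustment in each of the 4 comparisons, HCT116 included.

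Since CA9, CA12 and SLC16A3 are hypoxia targets, 29 other textbook targets were set beside them. With both lines in 1 model, 4 of the 29 (13.8%) had an unadjusted limma p under 0.05, where 4.43% of all genes had one. NDRG1, EGLN1 and STC2 were among them. At that level edgeR found 5 and DESeq2 found 4, each against 4% of all genes. After adjustment limma, edgeR and DESeq2 called 0 of the 29. NDRG1, a stress-responsive gene, stood at 4552 and 8715 normalized counts in the HCT116 knockdown libraries, against 14929 in the control. In SW620 NDRG1 had 35.6 and 44.1 in the knockdown libraries, against 119 in the control, and its log2 fold change over both lines was -1.40 ± 0.29. EGLN1, an oxygen sensor, stood at 2074 and 1446 in the HCT116 knockdown libraries, against 784 in the control, and had a log2 fold change of 0.72 ± 0.26 over both lines. The glycoprotein gene STC2 had one of 0.61 ± 0.26. The median of the list over both lines was -0.07, against -0.014 over all genes, so these targets lay on both sides of the control.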

How the data were processed

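RNA was sequenced from 6 libraries of HCT116 and SW620 cells. Per the labels' protocols, Trizol RNA went into Illumina's TruSeq RNA Sample Prep kit, a kit without strand information. The authors deposited 1 table per line, whose signal columns hold normalized counts: the reads of a library over that library's size factor. Multiplying by the size factors returned whole reads for 100% of values (tolerance 1e-06). Mean signals, log2 fold changes with standard errors, test score, p-value and adjusted p-value by the authors stand in the same deposited tables. The submitters' processing notes list Bowtie 0.12.2 and the build hg18, with no role. The name of the counter was not given in the sources used here, nor was its annotation. Features with date-like names, 28 of 26364, were left out, with 0.232% to 0.262% of a library's reads.

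Tests used limma 3.58.1 (eBayes with trend, two-sided) on log2(normalized count + 1), which understates the change of low genes, over 18743 genes with a mean of at least 1, with Benjamini-Hochberg adjustment and a threshold of 0.05. Each line and the difference came from a model of 4 groups, which takes each single control to vary as the knockdown pairs do. The common effect came from a model with line and knockdown. edgeR 4.0.16 and DESeq2 1.42.0 on the recovered reads, other pseudocounts and filters, median centring and leaving out libraries were alternatives. Levels per length used reads per kb of the longest principal coding transcript of GENCODE 29 (GRCh38) scaled to the reads on named genes (RPKM). All 34 members had a length. Ratio intervals are 95% and cover counting error only.

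Values in every library are printed for members with an unadjusted limma p under 0.05 in a comparison, with both knockdown libraries at least 2-fold off the control at 50 or more normalized counts, or with the highest mean level per length of a role group, and for TEAD4. Of the other pathway genes and hypoxia targets, at most 4 per comparison with an unadjusted p under 0.05 are named, besides EMB, LDHA and LDHB. A hypoxia target that met this rule is not reported here. Values in every library of SLC4A7, SLC9A9, SLC16A1, SLC16A6, CA2 and CA13 are shown beyond this rule and were chosen after they were seen. The members, lists and rules were chosen with earlier results of these data known. Where exons overlap those of another gene, as for 20 of the 34 members, reads of both cannot be told apart. The columns number the knockdown libraries 1 and 2 and are not tied to the letters of the labels.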

Additional observations from a re-analysis of the deposited data

Results flagged for a closer look

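In 5 members with at least 50 normalized counts in a library of each line, both HCT116 knockdown libraries lay on one side of the control and both SW620 knockdown libraries on the other. The difference, HCT116 effect minus SW620 effect, was tested with limma in each, and its adjusted p was 1 in all 5. It was -3.04 on the log2 scale for CA8 (unadjusted p = 0.00528) and 1.71 for SLC16A5 (unadjusted p = 0.0292). It was 2.76 for SLC16A6 (unadjusted p = 0.108), 0.88 for SLC9A5 (unadjusted p = 0.142) and -0.48 for BSG (unadjusted p = 0.308). Without the count filter, 13.8% of all genes lay on opposite sides, and the share with the filter was not computed. The 5 members were picked by the same values, so these p-values are no separate support.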

How the results depend on the processing

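The 21 gene results named above, TEAD4 included, were chosen for an unadjusted limma p under 0.05 or for 2-fold changes in both knockdown libraries. A change of direction was thus unlikely beforehand, and its absence is no support for them. In 252 recomputations none changed direction, and 245 stayed on the same side of the adjusted threshold. The other 7 passed it where limma had not: 6 with DESeq2, and TEAD4 in HCT116 with no filter on low values (limma adjusted p = 0.0454). The number of members at an unadjusted p under 0.05 in HCT116 was 2 when its 3 libraries were fitted alone, against 4. The share of all genes in that fit was not computed. Leaving out single libraries gave 4 to 6 in HCT116, 2 to 6 in SW620, 3 to 6 for both lines and 2 to 7 for the difference. The count of 6 in HCT116 and that for both lines came without HCT116 knockdown library 1, where 13.3% and 6.55% of all genes had such a p, and that in SW620 without either HCT116 knockdown library. In HCT116 without knockdown library 2, the share of all genes with such a p was larger than that of the members. The unadjusted p of the SLC16A3 value over both lines was 0.0648 with edgeR, 0.0502 with a pseudocount of 0.5 and 0.0512 with a mean of at least 10. That of CA8 was 0.0529 in HCT116 with its 3 libraries alone and 0.0545 in SW620 with DESeq2. At an adjusted p under 0.05 DESeq2 called 2 members in HCT116 and 1 in both lines, where limma called 0. The cause was not tested. No paired analysis was possible because the control of a line is 1 library with no letter and the columns of the knockdown libraries carry no letters. With 1 control per line, every comparison leans on that library, and genes under about 50 normalized counts (CA9 in HCT116, SLC26A3, SLC26A11 in SW620) are limited by depth.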
